A study of Arabidopsis thaliana with 12 samples.

Results

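The 9 genes described here encode small heat shock proteins of the cytosol and nucleus of Arabidopsis thaliana. They were taken by locus code from the 28642 genes of the deposited tables: HSP17.8, HSP17.6A-CI, HSP17.6B-CI, HSP17.6C-CI, HSP17.4 and HSP18.2 of class CI, HSP17.6-CII and HSP17.6A of class CII, and AT1G54050 of class III. Their RNA was measured by sequencing of rosette leaves of 4 genotypes, with 3 libraries per genotype: the triple mutant sapx tapx pgr5, the mutant pgr5, the double mutant sapx tapx, and wild type. All plants, wild type included, grew for 18 days under 40 to 60 µmol photons (per square metre and second) before 90 min at 1500 in the same unit. No library of unexposed leaves was analysed here, so each comparison is between genotypes after strong light. The SAPX and TAPX proteins are ascorbate peroxidases of the chloroplast stroma and thylakoids that remove hydrogen peroxide, and PGR5 takes part in cyclic electron flow around photosystem I. The labels name neither the mutant alleles nor the wild type strain, and they do not say how many plants went into a library.

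Small heat shock proteins hold unfolding proteins in large soluble assemblies without using ATP. The held proteins are released and refolded by the HSP70 machinery together with the disaggregase HSP101. Leaves at mild temperature make little RNA of most of these genes, and heat shock transcription factors, which bind repeats of the unit nGAAn in alternating orientation (heat shock elements), switch them on. Classes CI and CII are found in the cytosol and partly in the nucleus, and class III is nuclear.

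The genes lie on 4 chromosomes, and those of classes CI and CII have a single exon in the deposited tables (TAIR10 coordinates). HSP17.8 is AT1G07400 at chr1:2274943-2275758 on the plus strand, HSP17.6A-CI is AT1G59860 at chr1:22031413-22032132 on the plus strand, and HSP17.6C-CI is AT1G53540 at chr1:19980462-19981109 on the plus strand. HSP17.6B-CI is AT2G29500 at chr2:12633091-12633805 on the minus strand, HSP17.4 is AT3G46230 at chr3:16984118-16984841 on the minus strand, and HSP18.2 is AT5G59720 at chr5:24062577-24063277 on the plus strand. The class CII genes are neighbours on the minus strand of chromosome 5, HSP17.6-CII (AT5G12020) at chr5:3882237-3882938 and HSP17.6A (AT5G12030) at chr5:3884107-3884737. AT1G54050 lies at chr1:20179422-20180281 on the minus strand and has 3 exons.

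Letters of heat shock elements stand before the coding start of every one of the 9 genes, and the stretches that hold them are shown because they divide the family differently from the RNA levels that follow. Each stretch has 30 bases, read 5′ to 3′ on the gene's strand from the RefSeq genome (TAIR10.1), and capitals mark the matched GAA and TTC letters. The first 3 stretches hold a 3-unit form, GAANNTTC followed by NNGAA, and the others hold the 2-unit forms, GAANNTTC or TTCNNGAA. They start, in the order shown, 236, 264, 233, 154, 124, 177, 176 and 237 bases before the coding start, counted at the first matched letter. HSP17.6B-CI, whose matches lie apart from each other, is not shown.
HSP18.2, chr5:24062388-24062417, plus strand: caacaaacGAAacTTCctGAAatgccaaga
HSP17.6C-CI, chr1:19980238-19980267, plus strand: caacaccaGAAacTTCttGAAagcacctga
HSP17.4, chr3:16984945-16984974, minus strand: tcaacataGAAgcTTCttGAAgccacctga
HSP17.8, chr1:2274983-2275012, plus strand: ggacccgtaaaTTCtaGAAgctctggagat
HSP17.6A-CI, chr1:22031339-22031368, plus strand: atttgcctcatTTCtaGAAgctctggagat
HSP17.6-CII, chr5:3883035-3883064, minus strand: gaccaagacgtTTCtcGAAcaatacggaag
HSP17.6A, chr5:3884842-3884871, minus strand: gatcaagacgtTTCtcGAAcgttagagaag
AT1G54050, chr1:20180332-20180361, minus strand: acTTCtaGAAattttctctgGAActTTCta

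HSP18.2, HSP17.6C-CI and HSP17.4 also share a second stretch nearer the gene. It is shown because it is alike in the 3 genes, with 25 of 30 bases equal between HSP18.2 and HSP17.6C-CI, 23 between HSP18.2 and HSP17.4, and 25 between HSP17.6C-CI and HSP17.4.
HSP18.2, chr5:24062507-24062536, plus strand: taTTCaaGAAactcgaaGAAcaTTCtctct
HSP17.6C-CI, chr1:19980341-19980370, plus strand: ttTTCaaGAAactcgcaGAAtgTTCtatct
HSP17.4, chr3:16984853-16984882, minus strand: atTTCaaGAAacttgcagagctttctatct

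In HSP17.4 the capitals of that stretch are the end of a second 3-unit form, which starts 152 bases before the coding start and in the next sequence is shown whole. HSP17.4 holds 2 forms of 3 units, against 1 each in HSP18.2 and HSP17.6C-CI.
HSP17.4, chr3:16984864-16984893, minus strand: agaaacctGAAatTTCaaGAAacttgcaga

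Within 400 bases before the coding start, 9 of the 9 genes held at least 1 match to GAANNTTC or TTCNNGAA, against 28.7% of 26710 windows of that length over all coding genes. Each 2-unit motif reads the same on the other strand, so both strands were covered, and a 3-unit form contains 2 overlapping 2-unit matches. The 3-unit forms (GAANNTTC followed by NNGAA, or TTCNNGAA followed by NNTTC) were found in HSP17.6C-CI, HSP17.4 and HSP18.2, against 0.985% of all windows. HSP17.6C-CI, HSP17.4 and HSP18.2 held 4 matches each, HSP17.6B-CI and AT1G54050 held 2, and HSP17.8, HSP17.6A-CI, HSP17.6-CII and HSP17.6A held 1. Over 250 bases before to 50 bases after the deposited gene start, 8 of the 9 genes held a match, against 20.2% of 28496 windows. The gene without one was HSP17.8, whose match begins 51 bases past its deposited start. Matches describe letters and not bound sites.

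**Figure D1:**
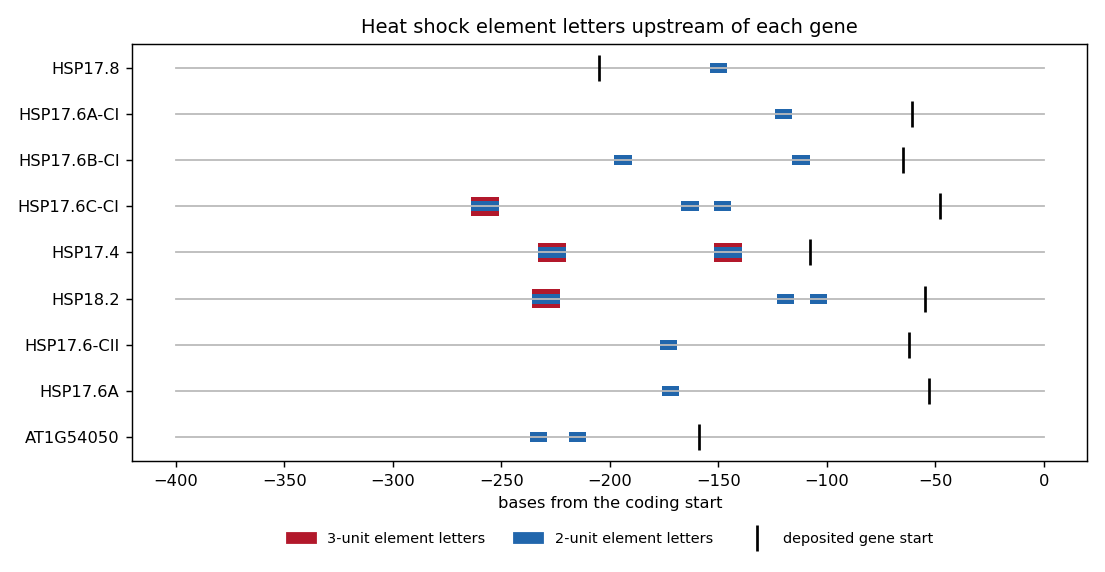
Positions of heat shock element letters in the 400 bases before the coding start of each gene; the x axis gives bases from the coding start, broad red bars are 3-unit forms, narrow blue bars are 2-unit forms (drawn over the 3-unit forms that contain them) and black ticks are deposited gene starts. HSP18.2 holds 4 matches, as many as HSP17.6C-CI and HSP17.4.

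The libraries held 4916603 to 6828070 exon reads, so that 3 reads stand for 0.439 to 0.610 CPM (counts per 1e6 exon reads). The labels' genotypes were checked on the mutated genes: SAPX and TAPX RNA differed from wild type by -3.36 ± 0.21 and -2.70 ± 0.09 (log2 ± SE) in the triple mutant and by -3.39 ± 0.21 and -3.21 ± 0.09 in sapx tapx, while PGR5 RNA did not check the pgr5 label (-0.01 ± 0.12 in pgr5, edgeR adjusted p = 0.970). All 5 leaf markers were present, with summed levels of 63570 to 67824 TPM in the triple mutant, 63246 to 65834 in pgr5, 64082 to 67347 in sapx tapx and 57850 to 66592 in wild type. Of 6 seed markers, 5, 4, 4 and 2 were at 0 in these genotypes in the same order, and their sum reached at most 3.57 TPM in any library. The sums of 7 root markers were 17.3 to 27.2 TPM, with 4, 4, 3 and 5 of the markers at 0 in that order of genotypes. Those of 4 flower markers were 1.13 to 3.43 TPM, with 2, 1, 1 and 1 of the markers at 0. Libraries of a genotype differed in 18 rapid stress and touch genes, whose mean log2(CPM + 1) was 5.37, 3.35 and 5.32 in replicates 1, 2 and 3 of the triple mutant, 4.34, 4.71 and 3.79 in pgr5, 5.86, 4.18 and 5.45 in sapx tapx, and 2.45, 5.31 and 2.46 in wild type. TCH4, a touch-induced cell wall enzyme gene of that list, ranged from 11.7 to 595 CPM within wild type. CPM values of genes, here and below, were scaled by edgeR's TMM normalization, unlike those given for 3 reads.

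The RNA of the small heat shock protein genes was abundant in the triple mutant, intermediate in pgr5 and scarce in sapx tapx and wild type. Summed over the 9 genes, the level was 2400, 1906 and 2772 TPM in the triple mutant, 254, 344 and 498 TPM in pgr5, 54.5, 53.9 and 51.4 TPM in sapx tapx, and 60.3, 48.7 and 65.8 TPM in wild type (replicates 1, 2 and 3). TPM, a level scaled by transcript length, is used here wherever genes are set beside each other. The triple mutant and pgr5 did not overlap with each other or with the remaining genotypes, whereas sapx tapx lay within the range of wild type. As a share of exon reads the family took 0.103 to 0.145% in the triple mutant, against 0.00251 to 0.00340% in wild type. In leaf RNA of this kind, fewer cells of a type and less RNA per cell cannot be told apart. Replicate 2 of the triple mutant had the lowest sum of its genotype and also the lowest touch gene mean, replicate 3 of pgr5 had the highest sum and the lowest touch gene mean, and replicate 2 of wild type had the lowest sum and the highest touch gene mean; the part of the touch genes' spread in these sums was not tested.

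**Figure D2:**
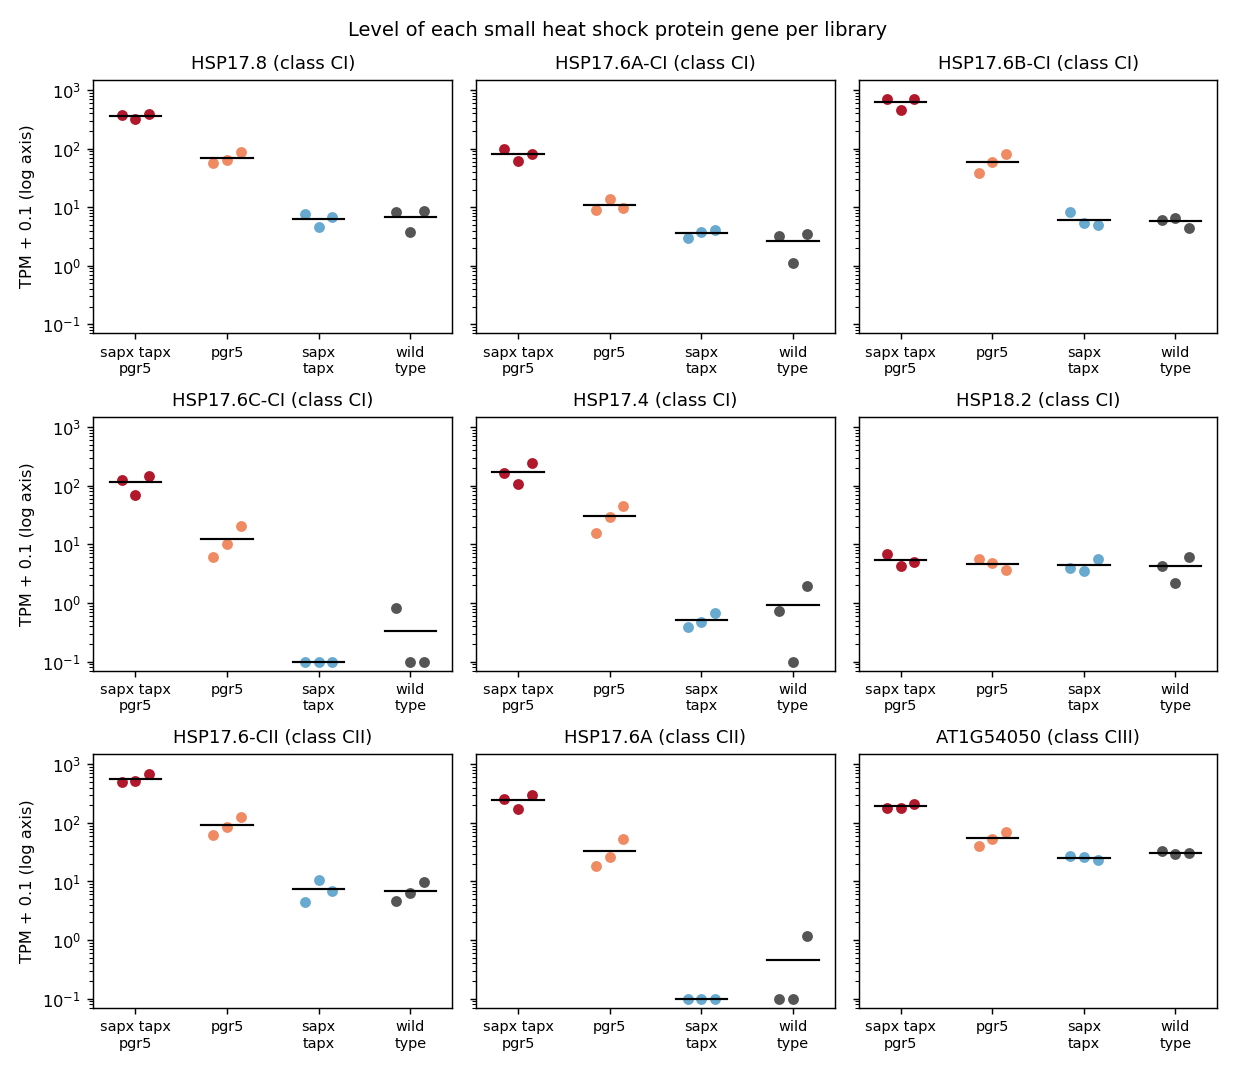
TPM plus 0.1 of each of the 9 genes (log axis) in the 3 libraries of each genotype, with sapx tapx pgr5 at the left and wild type at the right; points are libraries and black lines are group means. HSP17.6B-CI stands at 458 to 707 TPM in sapx tapx pgr5 and 4.38 to 6.51 TPM in wild type, and HSP18.2 at 4.21 to 6.85 TPM in sapx tapx pgr5 and 2.097 to 6.07 TPM in wild type.

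In the triple mutant 8 of the 9 genes rose over wild type, all except HSP18.2, by 2.72 to 7.69 on the log2 scale where a fold change could be fitted, and by read ratios of 513 and 717 in 2 genes with almost no reads in wild type. The test was edgeR's quasi-likelihood test on exon reads, with a Benjamini-Hochberg adjusted p under 0.05 over 16350 genes, and 0 of the 9 genes fell. Over all genes tested, 6.21% were called higher and 4.09% lower. The median log2 fold change was 6.48 over the 9 genes and 0.01 over all genes. HSP17.6C-CI, HSP17.4 and HSP17.6A passed the filter on low counts only through the triple mutant and pgr5, where they are high. Their rise is therefore not independent of the filter and is no separate support. Of the remaining 6 genes, 5 rose. In 8 of the 9 genes every triple mutant library lay above every wild type library in TPM, which held for 9.06% of all genes.

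HSP17.6B-CI, a class CI protein and the most abundant of the family in the triple mutant, stood at 707, 458 and 703 TPM in the triple mutant, 38.4, 59.3 and 81.0 TPM in pgr5, 8.10, 5.19 and 4.88 TPM in sapx tapx and 6.06, 6.51 and 4.38 TPM in wild type. Its lowest triple mutant library lay well above every other library, and sapx tapx and wild type overlapped. The log2 fold change of the triple mutant over wild type was 6.88 ± 0.32 (edgeR adjusted p = 3.28e-07), a 118-fold difference.

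HSP17.8, another class CI holdase, stood at 371, 323 and 397 TPM in the triple mutant, 57.7, 64.1 and 87.2 TPM in pgr5, 7.61, 4.55 and 6.79 TPM in sapx tapx and 8.11, 3.60 and 8.51 TPM in wild type. The triple mutant libraries lay close together and above all others, and wild type replicate 2 was the lowest library of all. HSP17.8 rose by 5.84 ± 0.27 over wild type (edgeR adjusted p = 3.07e-07). Its closest relative HSP17.6A-CI, which shares 88.1% of the aligned coding bases and a run of at most 43 identical bases, was several times lower in the triple mutant, at 62.1 to 98.4 TPM, and at 1.02 to 3.42 TPM in wild type. It rose by 5.05 ± 0.31 (edgeR adjusted p = 1.82e-06). No read of any of the 9 genes was counted as mapping to more than 1 place.

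HSP17.6-CII, a class CII protein, stood at 491, 526 and 681 TPM in the triple mutant, 63.1, 83.8 and 127 TPM in pgr5, 4.42, 10.6 and 6.72 TPM in sapx tapx and 4.55, 6.28 and 9.57 TPM in wild type. It rose by 6.48 ± 0.35 over wild type (edgeR adjusted p = 8.64e-07). Its chromosomal neighbour HSP17.6A, with 86.1% of aligned coding bases identical, was lower in every library of every genotype. HSP17.6A stood at 259, 174 and 303 TPM in the triple mutant and 18.6, 26.0 and 53.7 TPM in pgr5, against no read in sapx tapx and 3 reads in wild type, all of them in replicate 3. The ratio of the triple mutant to wild type, from 2233 and 3 reads, was 717 (95% counting interval 245 to 3478; edgeR adjusted p = 2.40e-05).

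HSP17.6C-CI and HSP17.4 are a close pair within class CI, with 85.0% of aligned coding bases identical, and both were near 0 in wild type. HSP17.4 stood at 163, 108 and 243 TPM in the triple mutant, 15.6, 28.9 and 45.3 TPM in pgr5, 0.286, 0.366 and 0.567 TPM in sapx tapx and 0.630, 0 and 1.86 TPM in wild type, the last from 2, 0 and 6 reads. It rose by 7.69 ± 0.58 over wild type (edgeR adjusted p = 1.01e-05), or by 8.95 without wild type replicate 3, and the triple mutant libraries did not overlap with those of any other genotype. HSP17.6C-CI stood at 69.9 to 149 TPM in the triple mutant and 6.05 to 20.4 TPM in pgr5, with no read in sapx tapx and 2 in wild type, both in replicate 1. Its ratio of the triple mutant to wild type, from 1065 and 2 reads, was 513 (95% counting interval 142 to 4240; edgeR adjusted p = 5.79e-05). HSP17.4 overlaps AT3G46220 on the opposite strand by 60 bases, and the library kit does not mark strand. The level of AT3G46220 was 7.54 ± 0.28 TPM in the triple mutant and 7.62 ± 0.15 TPM in wild type (SD, n = 3 each), so its level did not move with that of HSP17.4. Whether AT3G46220 gave some of the few HSP17.4 reads in wild type and sapx tapx was not tested.

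AT1G54050, the class III gene, was the one with a substantial level in every genotype. It stood at 180.5, 180.4 and 210.5 TPM in the triple mutant, 39.7, 53.7 and 71.0 TPM in pgr5, 27.4, 26.1 and 22.9 TPM in sapx tapx and 32.9, 29.2 and 31.0 TPM in wild type. The triple mutant lay above wild type without overlap, which held for 9.06% of all genes. So did pgr5, for which the share of all genes was not counted. The 3 sapx tapx libraries lay below wild type in TPM without overlap, which held for 11.9% of all genes. In CPM sapx tapx and wild type overlapped, at 11.5 to 14.3 and 14.02 to 16.3. AT1G54050 rose by 2.72 ± 0.18 in the triple mutant (edgeR adjusted p = 2.70e-06), the smallest of the fitted changes among the 8 genes that rose. AT1G54050 is the family's only gene with introns, and intronic reads made up 4.82% of its 1973 gene reads in the triple mutant (Wilson 95% interval 3.96 to 5.85%), 2.49% of 523 in pgr5 (1.46 to 4.21%), 3.32% of 241 in sapx tapx (1.69 to 6.41%) and 2.50% of 280 in wild type (1.22 to 5.07%). The triple mutant value rested on replicate 1, with 8.52%, while replicates 2 and 3 had 3.11 and 3.37%, and the intervals of the triple mutant and wild type overlap. Intervals on reads cover counting error only.

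HSP18.2, a class CI gene whose promoter is widely used as a heat-inducible promoter, did not pass the test in any comparison. It stood at 6.85, 4.21 and 4.83 TPM in the triple mutant, 5.59, 4.68 and 3.52 TPM in pgr5, 3.84, 3.40 and 5.56 TPM in sapx tapx and 4.23, 2.097 and 6.07 TPM in wild type. All 4 genotypes overlapped, and the reads per genotype were 53, 44, 41 and 38 in the same order. The log2 fold change over wild type was 0.44 ± 0.36 in the triple mutant (95% interval -0.34 to 1.22, edgeR adjusted p = 0.491) and 0.17 ± 0.37 in pgr5 (-0.63 to 0.97, adjusted p = 0.854). At this depth the interval's upper end of 1.22 lies below the interval of every other member. HSP18.2 shares 77.8% of aligned coding bases with HSP17.6C-CI and 77.0% with HSP17.4, and holds the same number of element matches as these.

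**Figure D3:**
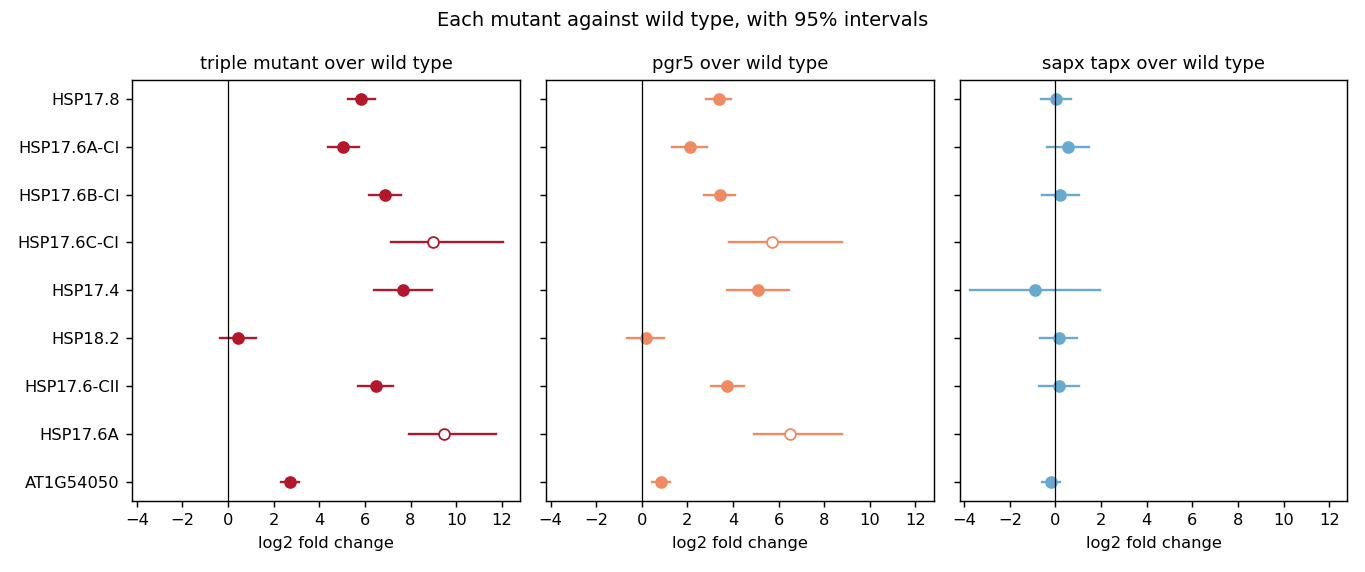
Log2 fold change of each gene in sapx tapx pgr5, pgr5 and sapx tapx over wild type (3 libraries each), with 95% intervals; filled points are edgeR estimates and open points are ratios of reads with counting intervals for genes with 2 or 3 reads in wild type. All genes but HSP18.2 lie right of 0 with their intervals in the first 2 panels, and HSP17.6C-CI and HSP17.6A have no point in the third, where sapx tapx had 0 reads.

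In pgr5 8 of the 9 genes, all except HSP18.2, rose over wild type by smaller fold changes, and 0 fell. Among all genes, 2.44% were called higher and 1.46% lower in that comparison (edgeR adjusted p under 0.05), and the median over the 9 genes was 3.42. HSP17.6C-CI, HSP17.4 and HSP17.6A had passed the filter only through the triple mutant and pgr5, so their rise is not independent of the filter. Of the remaining 6 genes, 5 rose. HSP17.8 rose by 3.38 ± 0.26 (adjusted p = 5.01e-05), HSP17.6B-CI by 3.42 ± 0.31 (adjusted p = 0.000140), HSP17.6-CII by 3.76 ± 0.34 (adjusted p = 0.000133), HSP17.4 by 5.09 ± 0.63 (adjusted p = 0.00140) and HSP17.6A-CI by 2.096 ± 0.349 (adjusted p = 0.00829). The ratio to wild type was 90.6 for HSP17.6A (282 and 3 reads, 95% counting interval 30.7 to 442) and 52.1 for HSP17.6C-CI (108 and 2 reads, 14.1 to 435). AT1G54050 rose by 0.84 ± 0.17 (adjusted p = 0.0219). The last call was the least secure: it was lost without any 1 of wild type replicates 1, 2 and 3 or pgr5 replicates 2 and 3 (log2 0.62 to 0.90, adjusted p = 0.0540 to 0.0793) and in a fit of these genotypes alone (0.84, adjusted p = 0.0827), as well as in that fit with the replicate number as a block (0.81, adjusted p = 0.0517). HSP17.6C-CI missed the threshold without wild type replicate 3 (adjusted p = 0.0522). Within pgr5, replicate 3 held the highest level of 7 of the 9 genes, all but HSP17.6A-CI and HSP18.2.

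In sapx tapx none of the 9 genes differed from wild type by the edgeR test, where 0.0183% of all genes were called higher and 0.0183% lower. No member had an unadjusted p under 0.05, and DESeq2 called 0 as well. The log2 fold changes with 95% intervals were 0.01 for HSP17.8 (-0.64 to 0.66), 0.54 for HSP17.6A-CI (-0.37 to 1.45), 0.21 for HSP17.6B-CI (-0.61 to 1.04), 0.16 for HSP17.6-CII (-0.71 to 1.03), 0.15 for HSP18.2 (-0.66 to 0.95) and -0.18 for AT1G54050 (-0.58 to 0.22). HSP17.4, with 4 reads in sapx tapx and 8 in wild type, gave -0.90 with a wide interval of -3.76 to 1.96. HSP17.6C-CI and HSP17.6A had 0 reads in sapx tapx and 2 and 3 reads in wild type, at or under the floor of 3 reads over a genotype, and have no fold change.

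The triple mutant was then set against pgr5 and against sapx tapx. Over pgr5, 8 of the 9 genes rose and 0 fell, all except HSP18.2, beside 1.35% of all genes called higher and 0.196% lower. Every triple mutant library lay above every pgr5 library for these 8 genes, which held for 7.07% of all genes. The log2 fold change was 3.47 ± 0.26 for HSP17.6B-CI (edgeR adjusted p = 4.78e-05), 2.96 ± 0.25 for HSP17.6A-CI (adjusted p = 0.000121), 2.47 ± 0.21 for HSP17.8 (adjusted p = 0.000139), 2.72 ± 0.28 for HSP17.6-CII (adjusted p = 0.000374) and 1.88 ± 0.17 for AT1G54050 (adjusted p = 0.000156). HSP17.6C-CI (3.30 ± 0.41), HSP17.6A (2.99 ± 0.38) and HSP17.4 (2.59 ± 0.38) had adjusted p-values of 0.00316 to 0.00385, and these were the genes that lost the call with limma on log2(TPM + 0.1) (adjusted p = 0.0508, 0.0928 and 0.181). HSP18.2 stood at 0.27 ± 0.35 (95% interval -0.49 to 1.04).

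Over sapx tapx, the same count held in the triple mutant: 8 of the 9 genes rose and 0 fell, beside 4.78% of all genes called higher and 3.13% lower. For HSP17.6C-CI, HSP17.4 and HSP17.6A, which passed the filter only through the triple mutant and pgr5, the rise is again not independent of the filter. Of the remaining 6 genes, 5 rose. HSP17.6B-CI rose by 6.67 ± 0.32, HSP17.6-CII by 6.32 ± 0.35, HSP17.8 by 5.83 ± 0.27, HSP17.6A-CI by 4.51 ± 0.29 and AT1G54050 by 2.90 ± 0.18, with edgeR adjusted p-values of 4.81e-07 to 3.05e-06. HSP17.4 rose by 8.59 ± 0.64 (adjusted p = 9.78e-06). Against the floor of 3 reads over the 3 sapx tapx libraries, HSP17.6A was at least 697-fold higher and HSP17.6C-CI at least 333-fold higher in the triple mutant. These comparisons share the triple mutant libraries with those above, so their values stand beside each other as descriptions.

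The interaction compares what loss of SAPX and TAPX did in pgr5 plants with what it did in wild type plants, which is equal to comparing what pgr5 did with and without both peroxidases. It passed the edgeR test for 3 of the 9 genes, all in the direction of a larger effect in the triple mutant, beside 0.128% of all genes called higher and 0.0122% lower. The log2 difference between the effects was 2.06 ± 0.25 for AT1G54050 (adjusted p = 0.00993), 3.25 ± 0.46 for HSP17.6B-CI (adjusted p = 0.0138) and 2.45 ± 0.37 for HSP17.8 (adjusted p = 0.0197). For AT1G54050, loss of SAPX and TAPX changed the level by 1.88 in pgr5 and by -0.18 in wild type. The interaction was 2.56 ± 0.48 for HSP17.6-CII (adjusted p = 0.0939), 2.42 ± 0.50 for HSP17.6A-CI (adjusted p = 0.143), 3.49 ± 1.42 for HSP17.4 (adjusted p = 0.637) and 0.13 ± 0.51 for HSP18.2 (adjusted p = 0.995). HSP17.6C-CI and HSP17.6A, with 0 reads in sapx tapx, had adjusted p-values of 0.779 and 0.707 and no fold of their own.

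The calls in the interaction depended on single libraries, except that of AT1G54050, which passed in all 12 omissions (adjusted p at most 0.0310). HSP17.6B-CI missed the threshold without wild type replicate 1, sapx tapx replicate 3 or pgr5 replicate 2 (3.09 to 3.26, adjusted p = 0.0546 to 0.0741). HSP17.8 missed it without replicate 1 or 3 of wild type, sapx tapx replicate 2 or 3, pgr5 replicate 1 or 2, or triple mutant replicate 1 or 3 (2.28 to 2.48, adjusted p = 0.0544 to 0.103). With the replicate number as a block, 4 of the 9 genes passed, the added one being HSP17.6-CII (2.58, adjusted p = 0.0180).

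**Figure D4:**
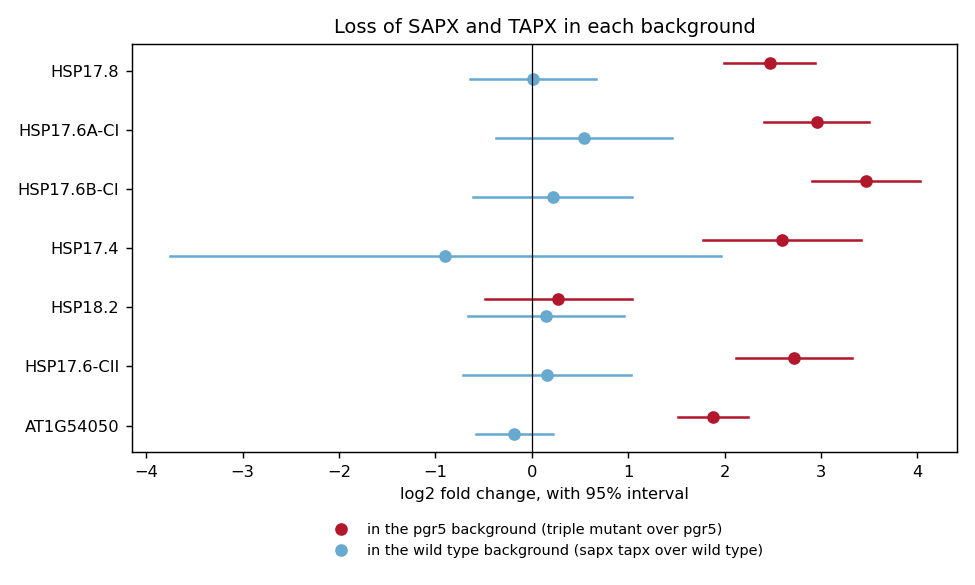
Log2 fold change with 95% interval for loss of SAPX and TAPX in the pgr5 background (triple mutant over pgr5, red) and in the wild type background (sapx tapx over wild type, blue), 3 libraries per genotype; HSP17.6C-CI and HSP17.6A are left out because sapx tapx had 0 reads. In the pgr5 background 6 of the 7 genes shown lie between 1.88 and 3.47, and in the wild type background the interval of each gene includes 0.

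The order of the genes by mean TPM changed between genotypes. In the triple mutant it was HSP17.6B-CI (622 ± 142 TPM, SD, n = 3), HSP17.6-CII (566 ± 101), HSP17.8 (364 ± 37.5), HSP17.6A (245 ± 65.3), AT1G54050 (190 ± 17.3), HSP17.4 (171 ± 67.8), HSP17.6C-CI (114 ± 40.5), HSP17.6A-CI (80.5 ± 18.19) and HSP18.2 (5.30 ± 1.38). Neighbours in that order were clear of each other, library by library, between HSP17.6-CII and HSP17.8, between HSP17.8 and HSP17.6A, and between HSP17.6A-CI and HSP18.2, and the other neighbours overlapped. In pgr5 HSP17.6-CII led with 91.2 ± 32.4 TPM, followed by HSP17.8 (69.6 ± 15.5), HSP17.6B-CI (59.6 ± 21.3), AT1G54050 (54.8 ± 15.66), HSP17.6A (32.8 ± 18.49), HSP17.4 (29.9 ± 14.9), HSP17.6C-CI (12.2 ± 7.41), HSP17.6A-CI (10.9 ± 2.70) and HSP18.2 (4.598 ± 1.04), and only the last pair was clear.

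In sapx tapx AT1G54050 led with 25.5 ± 2.30 TPM, followed by HSP17.6-CII (7.24 ± 3.11), HSP17.8 (6.31 ± 1.58), HSP17.6B-CI (6.06 ± 1.78), HSP18.2 (4.27 ± 1.14), HSP17.6A-CI (3.51 ± 0.575) and HSP17.4 (0.406 ± 0.145). In wild type it led with 31.0 ± 1.84 TPM, followed by HSP17.6-CII (6.80 ± 2.55), HSP17.8 (6.74 ± 2.72), HSP17.6B-CI (5.65 ± 1.12), HSP18.2 (4.13 ± 1.99), HSP17.6A-CI (2.54 ± 1.32), HSP17.4 (0.829 ± 0.944), HSP17.6A (0.355 ± 0.615) and HSP17.6C-CI (0.235 ± 0.407). AT1G54050 was clear of the next gene in both genotypes. In wild type all other neighbours overlapped, and in sapx tapx HSP17.6A-CI was also clear of HSP17.4, and HSP17.4 of the genes without a read.

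The makeup of the family's RNA also differed between genotypes. AT1G54050 made up 8.19 ± 1.10% of the summed TPM in the triple mutant, 15.2 ± 0.792% in pgr5, 47.8 ± 2.89% in sapx tapx and 53.8 ± 6.48% in wild type (SD, n = 3). HSP17.6B-CI went the other way, with 26.3 ± 2.81% in the triple mutant, 16.2 ± 1.05% in pgr5, 11.3 ± 3.06% in sapx tapx and 10.03 ± 3.35% in wild type. HSP17.6-CII held 24.2 ± 3.57% in the triple mutant, 24.9 ± 0.539% in pgr5, 13.6 ± 5.78% in sapx tapx and 11.7 ± 3.66% in wild type. HSP18.2 held 0.227 ± 0.0557% in the triple mutant and 6.85 ± 2.46% in wild type. Shares add up to the whole, so a share that is lower need not mean a lower level.

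**Figure D5:**
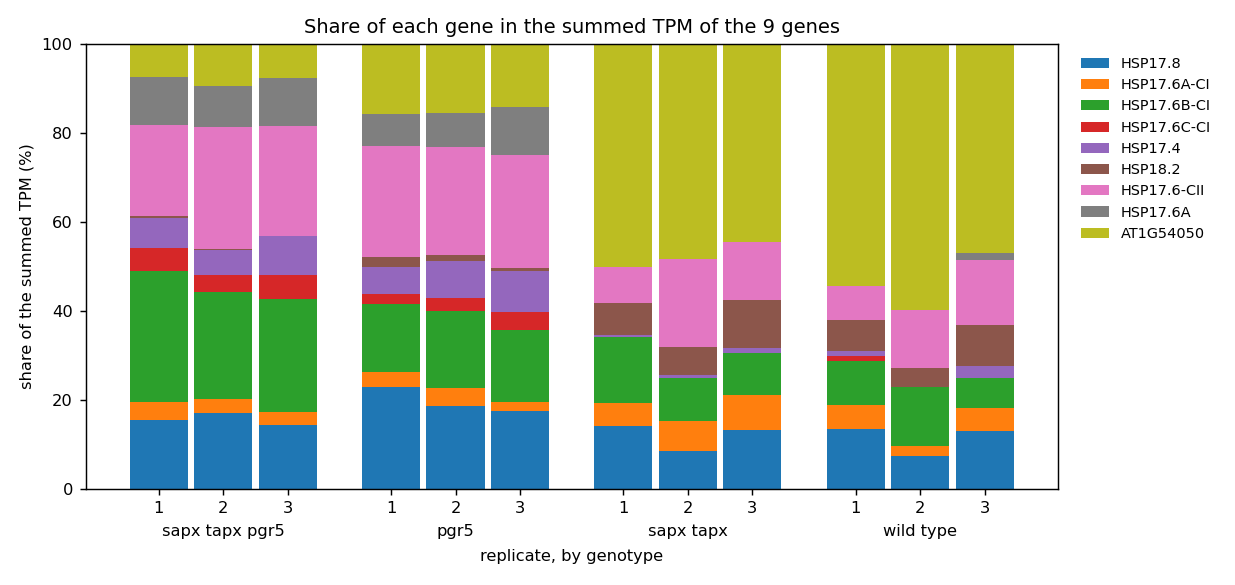
Share (%) of each gene in the summed TPM of the 9 genes, one bar per library, with the replicates of sapx tapx pgr5 at the left and those of wild type at the right. AT1G54050 takes 7.52 to 9.47% in sapx tapx pgr5 and 47.0 to 59.9% in wild type, and HSP17.6A appears in wild type in replicate 3 alone.

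Other genes of the heat shock system were counted from 4 lists in the same fit. Among 10 other small heat shock protein genes, of other cytosolic classes and of organelles, 6 passed the filter. In the triple mutant over wild type 4 of them rose and 1 fell. Those that rose were HSP23.6 (6.73 ± 0.54) and HSP23.5 (4.89 ± 0.35), both mitochondrial, HSP15.7 (5.43 ± 0.62), which is peroxisomal, and HSP18.5 (1.96 ± 0.23), with edgeR adjusted p-values of 5.93e-06 to 0.000266. The gene that fell, named after its value was seen, was HSP21.7 (-0.56 ± 0.16, adjusted p = 0.0488). In pgr5 over wild type 2 rose, HSP23.6 (3.63 ± 0.69) and HSP23.5 (2.77 ± 0.35), and 0 fell. In the triple mutant over pgr5 4 rose and 0 fell, and over sapx tapx 4 rose and 1 fell. HSP21, the chloroplast member, had 8 reads in the triple mutant and HSP22.0, of the endoplasmic reticulum, had 15, and neither had a read in any other genotype, so both stayed under the filter.

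Among 21 heat shock transcription factor genes, 16 passed the filter, and 4 rose and 0 fell in the triple mutant over wild type. HSFA2, an inducible activator that binds heat shock elements, stood at 140 ± 16.2 TPM in the triple mutant, 57.1 ± 3.87 TPM in pgr5, 4.29 ± 0.865 TPM in sapx tapx and 4.38 ± 2.58 TPM in wild type (SD, n = 3). It rose by 5.08 ± 0.32 over wild type in the triple mutant (edgeR adjusted p = 2.04e-06) and by 3.71 ± 0.31 in pgr5 (adjusted p = 8.21e-05). HSFA7A rose by 3.75 ± 0.43 and 2.19 ± 0.50 in the same comparisons. HSFB2B, a repressor of heat shock genes, rose by 1.38 ± 0.18 in the triple mutant, and HSFB1, a related repressor, by 0.75 ± 0.22 (adjusted p = 0.0469); neither passed in pgr5 (0.42 ± 0.18 and 0.47 ± 0.22). The factors HSFA1A, HSFA1B, HSFA1D and HSFA1E, which are present without stress and start the response, passed in no comparison and stood between -0.33 and 0.67 in the triple mutant over wild type. Over pgr5, 3 factor genes rose and 0 fell in the triple mutant, and likewise over sapx tapx.

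All 15 genes of the cytosolic refolding machinery, to which small heat shock proteins pass their clients, passed the filter. In the triple mutant over wild type 12 rose and 0 fell, led by HSP90.1 (5.29 ± 0.30), HOP3 (4.55 ± 0.29), which links HSP70 and HSP90, HSP101 (4.11 ± 0.29) and HSP70-4 (4.28 ± 0.32), with edgeR adjusted p-values of 1.15e-06 to 9.46e-06. In pgr5 over wild type 7 rose and 0 fell, with HSP90.1 at 3.18 ± 0.28, HOP3 at 2.55 ± 0.27, HSP101 at 2.39 ± 0.28 and HSP70-4 at 2.82 ± 0.30. In the triple mutant, 8 rose over pgr5 and 13 over sapx tapx, and 0 fell in either. The interaction passed for HSP90.1 alone (2.26 ± 0.37, adjusted p = 0.0462). In sapx tapx over wild type none of the genes of these 3 lists was called by edgeR, and unadjusted p-values were under 0.05 for 1, 2 and 0 of them in the order of the lists above.

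The rapid stress and touch list is given because its level varied between libraries of a genotype. Of its 18 genes, 2 rose in the triple mutant over wild type, the zinc finger genes ZAT6 (1.84 ± 0.35, edgeR adjusted p = 0.00713) and ZAT12 (2.06 ± 0.56, adjusted p = 0.0360), 0 fell, and none was called in the other comparisons, although 6 had an unadjusted p under 0.05 in sapx tapx over wild type. Replicate 2 stood apart on this list, low in the triple mutant and sapx tapx and high in wild type. Without these libraries, 8 small heat shock protein genes were called in the triple mutant over wild type and 8 in pgr5 over wild type. In sapx tapx over wild type 0 were called, and 8 in the triple mutant over pgr5 and over sapx tapx. Over all genes, that fit called 2989, 1470, 773, 1091 and 1653 in the same order, against 1685, 638, 6, 252 and 1293 with every library. The touch means left were 2.45 and 2.46 in wild type and 5.32 to 5.86 in the triple mutant and sapx tapx. Touch level thus went with genotype in that fit, so whether the calls depend on touch level was not tested.

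Across the 12 libraries, the Pearson correlation of log2(CPM + 1) with the family's mean profile was 0.967 to 0.991 for 8 of the 9 genes, against 0.504 for HSP18.2. The mean profile is made from all 9 genes. A member's value is therefore partly set by its own place in the mean, which the other genes tested do not have. The points share genotypes and libraries, so these values describe the 12 libraries and carry no p. By the same measure the 10 most alike of the other genes tested were AT2G20560 (0.993), AT5G51440, which is HSP23.5 (0.991), AT1G71000 (0.989), AGO2 (0.988), AT1G30070 (0.988), HSP90.1 (0.988), HSP101 (0.987), Hop3 (0.987), SGT1A (0.985) and Fes1A (0.985). AGO2, an Argonaute protein of small RNA silencing, changed over a smaller range than the family, with a mean of 20.1 TPM in the triple mutant, 13 in pgr5, 6.97 in sapx tapx and 6.88 in wild type. AT2G20560, the most alike, averaged 116 TPM in the triple mutant, 33.7 in pgr5, 8.53 in sapx tapx and 8.67 in wild type.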

How the data were processed

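The authors deposited 1 table per library; per the file headers it holds raw read counts (exon reads in total and unique, gene, exon-exon and intron reads) and TPM values. Coordinates are those of TAIR10, per the submitters' processing notes; aligner and counter: not given in the sources used here. Per the labels' protocols, libraries were made with the TruSeq RNA kit v2. The deposited tables list 28642 genes.

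Total exon reads were fitted with edgeR 4.0.16 (R 4.3.3): TMM normalization, filterByExpr (at least 10 reads at the median depth in 3 libraries, leaving 16350 genes), 1 quasi-likelihood fit over 12 libraries and a contrast per comparison; the threshold was a Benjamini-Hochberg adjusted p under 0.05. Every adjusted p is of this kind unless another tool is named. Log2 fold changes carry SE. Alternatives used DESeq2 1.42.0, limma 3.58.1 on log2(TPM + 1) or log2(TPM + 0.1), no filter, only the groups compared, a replicate block, and omission of each library. The fit was tested on simulated data, with 100 genes over 5 CPM changed at each fold in the triple mutant. In the triple mutant over wild type, 77% of 2-fold and 99% of 4-fold changes were recovered. In the interaction the shares were 35% and 87%, so smaller differences there were often missed. With 4916603 to 6828070 exon reads per library, a genotype with 0 reads was set to a floor of 3 reads, and 1 to 3 reads gave a ratio with a 95% exact counting interval; both cover counting error only.

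Replicates are separate samples in the labels, with nothing on separate plants, so p-values reflect only how these samples differ, which may be technical. No pair of libraries agreed within sampling noise (chi-square per degree of freedom 3.73 to 12.5). The replicate numbers come from the sample titles. Same-numbered libraries deviated together in pgr5 and wild type (correlations 0.202, 0.460 and 0.369) and in the triple mutant and sapx tapx (0.467, 0.634 and 0.410). They deviated in opposite directions in the triple mutant and wild type (-0.311, -0.673 and -0.195). The labels name no shared batch, so whether equal numbers mark pairs is not known. The main fit ignored the numbers, and alternatives used them as a block.

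Motifs were searched in the RefSeq TAIR10.1 genome, and 27997 genes were matched by locus code. Of these, 50.19% shared a start or an end with the deposited coordinates and 21.56% shared both. Gene start windows use the deposited starts, so they depend on that annotation. Of 26710 coding sequences read at RefSeq coordinates, 99.96% began with ATG, which checks the coding starts alone. The window before the coding start was added after the gene start window had been seen. Coding identity comes from global nucleotide alignment; no protein sequence was used.

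The members, the companion lists (written from general knowledge) and the tests were chosen with earlier results of these data known. Named are all 9 members, SAPX, TAPX, PGR5 and TCH4, up to 4 called genes per list with the lowest adjusted p in the triple mutant over wild type, HSFA1A, HSFA1B, HSFA1D, HSFA1E, HSFA2, HSFB1 and HSP101, and the 10 genes most alike in pattern. HSP21.7, HSP21, HSP22.0 and AT3G46220, which overlaps HSP17.4, are named outside this rule, after their values were seen.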

Additional observations from a re-analysis of the deposited data

Results flagged for a closer look

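For 3 of the 9 genes the effect of pgr5 differed between the sapx tapx and the wild type background by a test of the difference itself (edgeR interaction, adjusted p under 0.05). Among all genes, 0.128% were called higher and 0.0122% lower by that test. The difference between the effects was 2.45 on the log2 scale for HSP17.8, 3.25 for HSP17.6B-CI and 2.06 for AT1G54050, each larger in the sapx tapx background. In all 3 genes the 3 triple mutant libraries lay above all pgr5 libraries, which held for 7.07% of all genes. It also held for every other member that rose over pgr5. The difference between triple mutant and pgr5 is part of the interaction that picked these genes, so it adds no separate support.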

How the results depend on the processing

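The counts of small heat shock protein genes called were 8 in the triple mutant over wild type, 8 in pgr5 over wild type, 0 in sapx tapx over wild type and 8 in the triple mutant over pgr5 and over sapx tapx, and 3 in the interaction. With limma on log2(TPM + 0.1) the count was 5 in the triple mutant over pgr5 and 2 in the interaction, where HSP17.8 missed the threshold (adjusted p = 0.0635). In the interaction it was 5 with DESeq2, 7 with limma on log2(TPM + 1), 5 with the same and no filter, 5 without replicate 2 of wild type, sapx tapx and the triple mutant together, and 1 to 4 over the omissions of single libraries, with 1 after leaving out wild type replicate 1, sapx tapx replicate 3 or pgr5 replicate 2. In pgr5 over wild type omissions gave 6 to 8. The cause of these changes was not tested, beyond the smaller number of libraries in omissions. Log2 fold changes without a call crossed 0 under some alternatives. Over the omissions of single libraries in sapx tapx over wild type, HSP17.8 ranged from -0.29 to 0.19, HSP17.6-CII from -0.22 to 0.47, HSP17.6B-CI from -0.081 to 0.38, HSP18.2 from -0.18 to 0.50 and HSP17.4 from -1.45 to 0.37. HSP18.2 ranged from -0.15 to 0.53 in pgr5 over wild type and from -0.23 to 0.45 in the interaction. Without the 3 replicate 2 libraries, values in sapx tapx over wild type were -0.14 for HSP17.8, -0.27 for HSP17.6-CII and -0.061 for HSP18.2, and HSP18.2 stood at -0.14 in pgr5 over wild type. With limma HSP17.8 in sapx tapx over wild type was -0.033 on log2(TPM + 1), with or without the filter, and -0.028 on log2(TPM + 0.1). In the triple mutant over wild type 198 of 198 values of single genes kept their direction and their side of the threshold. HSP17.6C-CI without wild type replicate 1 and HSP17.6A without wild type replicate 3 had no read left in sapx tapx and wild type and gave no value in that comparison.

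With the replicate number as a block over all 12 libraries, the members called were 8, 8, 0, 8, 8 and, in the interaction, 4. The added call was HSP17.6-CII in the interaction. A fit of pgr5 and wild type alone called 7, with AT1G54050 lost, and 7 with the block (a fit chosen after seeing the data), so that the block changed no call there; a fit of the triple mutant and sapx tapx alone called 8 with or without it. In the other comparisons same-numbered libraries did not deviate together (correlations -0.673 to 0.00832).

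Counts over all genes moved more. They were 1685 in the triple mutant over wild type (731 with only the groups compared, 865 to 1853 over omissions, 2989 without the 3 replicate 2 libraries), 638 in pgr5 over wild type (337, 210 to 660, 1470, and 941 with only the groups compared and the block), 6 in sapx tapx over wild type (3, 4 to 81, 773; 56 with DESeq2 and 29 with the block), 252 in the triple mutant over pgr5 (112 to 341 over omissions, 1091, and 416 with the block), 1293 over sapx tapx (867 with only the groups compared and 3008 with the block added, 746 to 1523, 1653) and 23 in the interaction (10 to 61, 325; 97 with DESeq2, 34 with no filter on low counts, 46 and 40 with limma on log2(TPM + 1), 19 on log2(TPM + 0.1), 50 with the block). Depth limits HSP17.6C-CI, HSP17.6A and HSP17.4 in wild type and sapx tapx, with 0 to 8 reads per genotype.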
